A study of Mus musculus with 4 samples.

Results

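Basophils and mast cells are granulocytes that bind immunoglobulin E, and 8 genes that mark them were followed in lineage-negative bone marrow of mice in which Tet3 was targeted. The genes were taken by symbol, and all 8 had a row among the 16673 genes of the deposited table. Mcpt8, Prss34 and Cpa3 encode granule proteases, Fcer1a and Ms4a2 encode chains of the high-affinity immunoglobulin E receptor, Hdc encodes the enzyme that makes histamine, Cd200r3 a surface receptor and Cyp11a1 a steroid-synthesis enzyme. The study sequenced RNA of Lin– marrow, the fraction that remains when cells bearing markers of mature lineages are depleted. Of 4 mice aged 2 months, 2 were Tie2+/cre; Tet3F/F, labelled cKO, and 2 were Tet3F/F, labelled control, with 1 library a mouse. All 4 thus carry the floxed Tet3 alleles, and Cre is the difference named. Tie2 (Tek) drives Cre in endothelial cells and in blood cells that descend from them, so the deletion is not particular to basophils or mast cells, and the sources used here do not name the antibodies of the depletion.

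Basophils and mast cells arise from shared progenitors in the marrow under the transcription factors GATA2 and, in mast cells, MITF. Basophils finish their development in the marrow and then circulate, while mast cells mature in tissues under KIT signalling. When antigen crosslinks immunoglobulin E on the receptor, the cells release histamine, proteases and lipid mediators. Mcpt8 and Prss34 are characteristic of basophils in the mouse, whereas Cpa3, Fcer1a, Ms4a2 and Hdc are shared by both cell types. Hdc is also expressed in some myeloid progenitors and neutrophils.

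GATA factors take part in the development of both cell types, so their motif was looked for in the promoters of the genes, a feature that the choice of genes did not use. AGATAA, a spelling that these factors bind, was searched on both strands, and other GATA spellings were not searched. The window was the 250 bases before each RefSeq gene start (build GRCm38.p6, symbols matched for 8 of 8 genes, with 2 starts for Cyp11a1). AGATAA stood in 5 of the 8 genes, namely Prss34, Cpa3, Fcer1a, Ms4a2 and Cd200r3. It stood in 9.99% of all 32851 RefSeq promoters and in 6.31% of the 14316 promoters of genes in the table. The search also took TTCNNNGAA, the STAT motif, which was in 0 of the 8 genes and 7.02% of all promoters, and CANNTG, the E-box, which was in 7 of the 8 and 66.2%. These are matches of letters in a window, and no binding was measured. Reads had been aligned to another build (mm39), so the coordinates below belong to the sequences alone. The 3 promoters that follow show the motif in a protease pair and in the receptor's alpha chain, with AGATAA or its reverse complement in capitals, 5′ to 3′ on the gene's strand.
Prss34, GRCm38.p6 chr17:25298144-25298393, plus strand: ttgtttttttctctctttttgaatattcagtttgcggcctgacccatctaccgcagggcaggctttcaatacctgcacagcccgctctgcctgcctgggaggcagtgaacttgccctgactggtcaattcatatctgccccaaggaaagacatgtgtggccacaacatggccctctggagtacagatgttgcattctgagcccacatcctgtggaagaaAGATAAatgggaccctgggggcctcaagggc
Cpa3, GRCm38.p6 chr3:20242182-20242431, minus strand: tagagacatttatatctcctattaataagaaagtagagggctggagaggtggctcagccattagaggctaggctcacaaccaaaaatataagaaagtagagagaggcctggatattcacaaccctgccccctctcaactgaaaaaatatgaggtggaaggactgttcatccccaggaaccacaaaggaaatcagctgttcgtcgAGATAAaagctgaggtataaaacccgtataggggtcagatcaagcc
Fcer1a, GRCm38.p6 chr1:173227230-173227479, minus strand: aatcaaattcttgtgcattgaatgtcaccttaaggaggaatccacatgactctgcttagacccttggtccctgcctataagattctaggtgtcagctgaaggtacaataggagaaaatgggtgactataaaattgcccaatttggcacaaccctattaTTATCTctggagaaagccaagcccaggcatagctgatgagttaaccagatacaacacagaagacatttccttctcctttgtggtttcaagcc

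Ms4a2 was the gene with the most copies, 3 in its window, and Cd200r3 had 1. Each copy is shown with up to 10 bases on either side and the motif in capitals.
Ms4a2, GRCm38.p6 chr19:11623928-11623953, minus strand: ctgctctcttTTATCTtctcatttcc
Ms4a2, GRCm38.p6 chr19:11623741-11623766, minus strand: gcctggagacTTATCTgacaagtagg
Ms4a2, GRCm38.p6 chr19:11623720-11623740, minus strand: ttccgcatgaAGATAAtcatt
Cd200r3, GRCm38.p6 chr16:44943629-44943654, plus strand: ctggagatgaAGATAAagatagagga

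The motif's first base lay 31 bases before the start in Prss34, 46 in Cpa3, 92 in Fcer1a and 39 in Cd200r3. In Ms4a2 the copies began 224, 37 and 11 bases before it. Mcpt8, Hdc and Cyp11a1 held no copy of AGATAA in this window, which does not show that they lack other GATA spellings.

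**Figure D1:**
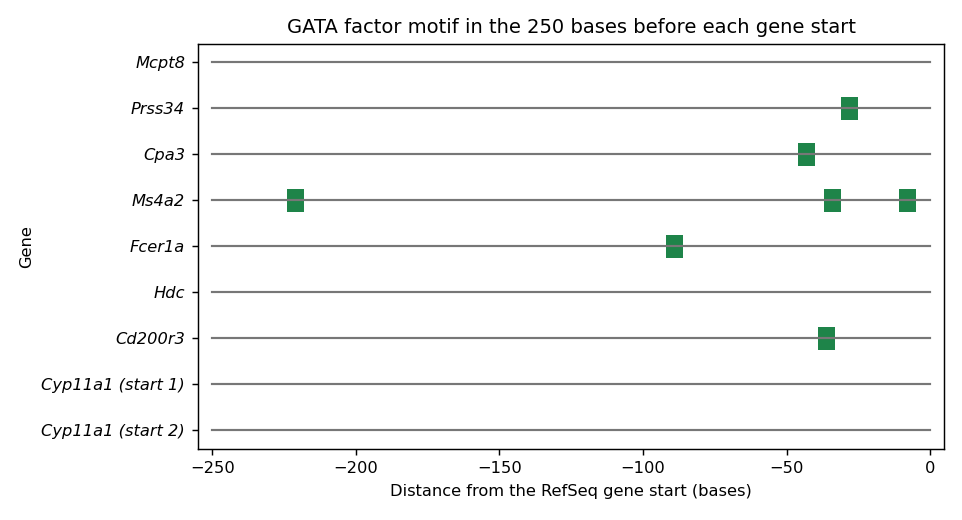
Copies of the GATA factor motif AGATAA, on either strand, in the 250 bases before each RefSeq gene start. The x axis is the distance from the start in bases, each line is 1 start (Cyp11a1 has 2) and each green block is 1 copy; 5 of 8 genes have at least 1, and Ms4a2 has 3.

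Levels are the deposited normalized counts, in which the reads of a gene are scaled by the library's size factor. The libraries held 28845037 and 30020188 reads on genes for cKO replicates 1 and 2, against 39199593 and 46673855 for control replicates 1 and 2. Control replicate 2 stood apart, at 96.2 on a first principal component with 56.9% of the variance, against -43.2 to -10.9 for the others. The 13 mitochondrially encoded protein genes took 8.16% of its reads, against 0.989% to 1.26% in the others. Tet3 itself had 6400 and 5084 normalized counts in cKO libraries and 5056 and 6593 in control libraries, so whole-gene counts do not check the genotype; the exons that the loxP sites flank are not stated. Xist had 87442 and 48951 normalized counts in cKO libraries and 5.54 and 9.57 in control libraries, so sex and genotype cannot be told apart. In bulk RNA, fewer cells of a type and less RNA per cell cannot be told apart either.

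No basophil or mast cell gene differed between cKO and control libraries beyond the spread between mice, while in each genotype all 8 were higher in replicate 1 than in replicate 2, by 1.06-fold to 3.74-fold. The summed level of the 8 genes was 32209 and 17396 normalized counts in cKO replicates 1 and 2, against 29404 and 10875 in control replicates 1 and 2. As a share of all reads counted to genes this was 0.0957% (Wilson 95% interval 0.0945 to 0.0968) and 0.0504% (0.0496 to 0.0512) in cKO libraries. The shares were 0.0812% (0.0804 to 0.0821) and 0.0292% (0.0287 to 0.0297) in control libraries, with intervals that cover counting error only. The highest library was a cKO one and the lowest a control one, but the high and low libraries of the 2 genotypes interleaved. Prss34 alone made up 50.5% and 46.3% of the sum in cKO libraries and 49.8% and 41.9% in control libraries.

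**Figure D2:**
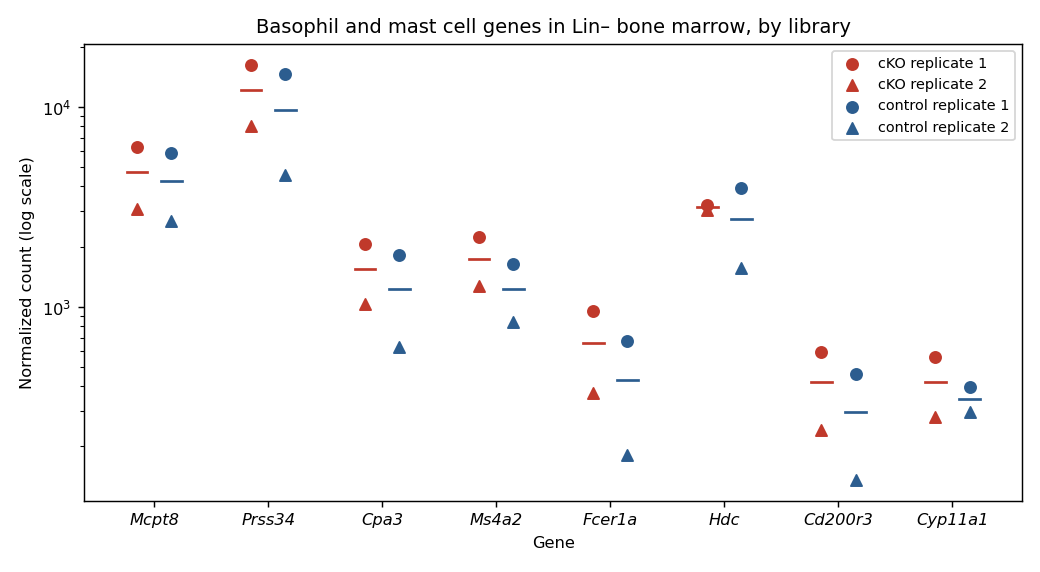
Normalized counts (log scale) of the 8 genes, cKO in red and control in blue, circles for replicate 1 and triangles for replicate 2 of each genotype; horizontal bars are group means (n = 2 mice each). For every gene the circles lie above the triangles of the same colour, and the 2 genotypes overlap.

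The granule proteases were the most abundant of the genes. Prss34, a tryptase-like serine protease also called mMCP-11 (chromosome 17), had 16265 and 8050 normalized counts in cKO libraries, against 14658 and 4557 in control libraries. The cKO values enclosed 1 control value, and the lowest library was control replicate 2. Its log2 fold change, cKO over control on the log2(normalized count + 1) scale used throughout, was 0.49 (SE 0.54, 95% interval -0.77 to 1.75; limma with Benjamini-Hochberg adjusted p = 0.836). Mcpt8, the basophil protease mMCP-8 (chromosome 14), had 6328 and 3095 normalized counts in cKO libraries, against 5861 and 2682 in control libraries. These pairs nearly coincided, and its log2 fold change of 0.16 (SE 0.43, 95% interval -0.85 to 1.17) was the smallest of the 8. Cpa3, the carboxypeptidase stored in the granules (chromosome 3), had 2055 and 1037 normalized counts in cKO libraries, against 1817 and 625 in control libraries. The highest and lowest of its libraries were again cKO replicate 1 and control replicate 2, and its log2 fold change was 0.45 (SE 0.51, 95% interval -0.74 to 1.65).

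The immunoglobulin E receptor has an alpha chain that binds the antibody, a beta chain that amplifies the signal and a gamma chain shared with other receptors. Fcer1a, the alpha chain (chromosome 1), had 950 and 370 normalized counts in cKO libraries, against 677 and 181 in control libraries. Its libraries were the most spread of the 8 genes, 5.25-fold between the highest and the lowest, and its log2 fold change was also the largest, 0.76 (SE 0.65, 95% interval -0.77 to 2.28; limma with Benjamini-Hochberg adjusted p = 0.792). Ms4a2, the beta chain (chromosome 19), had 2220 and 1265 normalized counts in cKO libraries, against 1628 and 838 in control libraries. It had the smallest p of the 8 genes, at 0.52 in log2 fold change (SE 0.38, 95% interval -0.36 to 1.40; unadjusted p = 0.207 and adjusted p = 0.772, limma with Benjamini-Hochberg adjustment). The ratio of Ms4a2 to Fcer1a was 2.34 and 3.42 in cKO libraries and 2.41 and 4.63 in control libraries, so the receptor chains kept no fixed ratio, and it was higher in the library with less of both. Fcer1g, the gamma chain, which is no member, had 3695 and 4819 normalized counts in cKO libraries and 5870 and 4436 in control libraries, a span of 1.59-fold. It was lower in cKO replicate 1, the library in which Fcer1a and Ms4a2 were highest, than in cKO replicate 2.

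Hdc, which encodes histidine decarboxylase (chromosome 2), departed from the others in cKO libraries. It had 3232 and 3057 normalized counts there, against 3906 and 1559 in control libraries. The cKO values nearly coincided and lay between the control values, and the log2 fold change was 0.35 (SE 0.39, 95% interval -0.55 to 1.25). Relative to Cpa3, Hdc was at 1.57 and 2.95 in cKO libraries and 2.15 and 2.49 in control libraries. Cd200r3, an activating receptor of the CD200 receptor family (chromosome 16), had 597 and 240 normalized counts in cKO libraries, against 462 and 136 in control libraries. Its libraries had the same order as those of Fcer1a, and cKO over control it was at 0.59 in log2 (SE 0.63, 95% interval -0.88 to 2.07). Related CD200 receptor genes share sequence, and the treatment of reads that match several genes is not stated, so its counts are uncertain to that extent. Cyp11a1, the mitochondrial side-chain cleavage enzyme that makes pregnenolone from cholesterol (chromosome 9), had 562 and 281 normalized counts in cKO libraries, against 396 and 297 in control libraries. It was the 1 gene of the 8 whose lowest library was cKO replicate 2, and its log2 fold change was 0.21 (SE 0.38, 95% interval -0.68 to 1.11). In the GENCODE M21 annotation its exons overlap those of the predicted gene Gm17322 on the same strand, so reads could have been split or left out there.

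Set per kilobase of exon (union of the exons in GENCODE M21, which may differ from the annotation used for counting), Prss34 had the highest level in every library, 13332 and 6598 in cKO libraries and 12015 and 3736 in control libraries. Mcpt8 followed with 6341 and 3101 in cKO libraries and 5873 and 2687 in control libraries, and Cpa3 came next in every library, at 412 to 1354. Fcer1a, Ms4a2 and Hdc overlapped one another, with group means per kilobase of 661, 619 and 492 in cKO libraries and 430, 438 and 428 in control libraries. Cyp11a1 (58.6 to 117) and Cd200r3 (22.7 to 99.7) were the lowest and overlapped each other.

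No member passed the limma test across 16598 genes at an adjusted p under 0.05, 0 of 8 in either direction, where 12 genes (0.0723%) were called. The 12 included the 5 sex-linked genes looked up, Xist higher and Ddx3y, Eif2s3y, Kdm5d and Uty lower in cKO libraries. In this limma test the members' unadjusted p ran from 0.207 to 0.724, none under 0.05, and their adjusted p from 0.772 to 0.938. edgeR and DESeq2 on recovered reads also called 0 of 8, at 0.0723% and 0.645% of genes called. All 8 log2 fold changes were above 0, as were 50.8% of all genes tested, with a median of 0.47 against 0.01 over all genes. The members share their libraries, so these 8 signs are not independent of each other. In 0 of 8 did the groups separate, where 19.2% of all genes tested had both cKO libraries above both control libraries and 19.5% had both below. Every 95% interval of the 8 held 0, and every one reached a 2-fold higher level in cKO libraries, while none reached a 2-fold lower one. A 2-fold higher level was thus within the error of each gene with 2 mice a group. The fit drew each gene's variance toward that of other genes, which mostly varied less than these 8 (median residual SD 0.29 against 0.84). The intervals therefore do not exclude a 2-fold lower level. The smallest two-sided p of an exact permutation test with these group sizes is 0.33.

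The estimates turned on single libraries. Without control replicate 2 the median of the 8 log2 fold changes was -0.30, and 6 of the 8 were below 0, from -0.41 for Mcpt8 to -0.19 for Fcer1a. Without cKO replicate 1 the median was -0.03, and 5 of the 8 were below 0. Without control replicate 1, when control replicate 2 was the sole control, the median was 1.12. Hdc was then called (1.01; limma with Benjamini-Hochberg adjusted p = 0.042), in a fit that called 393 genes over the table, against 12 with all libraries. Without cKO replicate 2 the median was 0.94 and none of the 8 was called. Ms4a2, the gene of smallest p with all libraries, was at 0.04 without control replicate 2 and 0.11 without cKO replicate 1, against 0.93 without cKO replicate 2 and 0.9986 without control replicate 1.

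**Figure D3:**
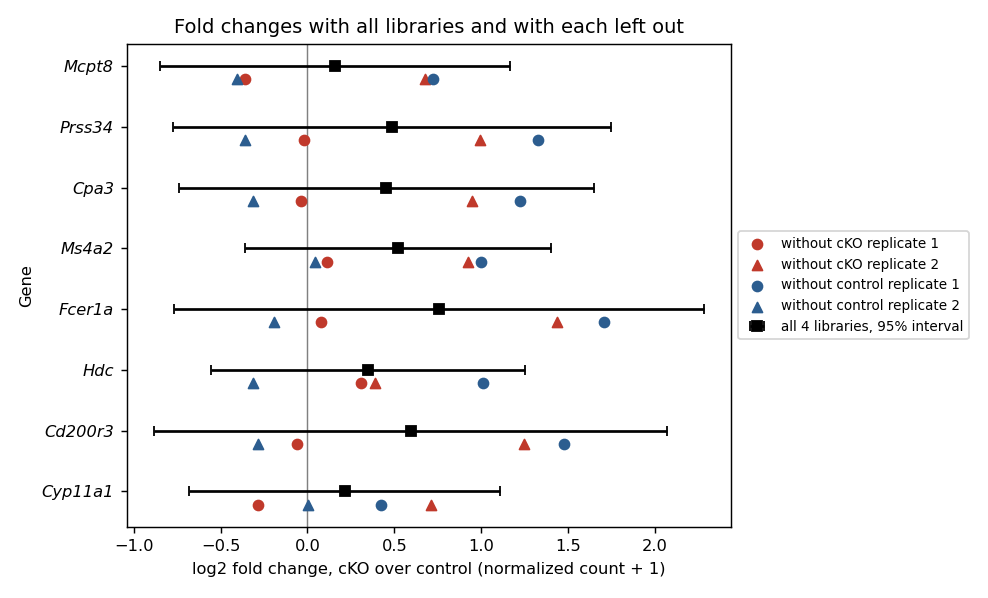
log2 fold change of each gene, cKO over control, on the log2(normalized count + 1) scale. Black squares with bars are the fit of all 4 libraries with its 95% interval, and coloured points the fit with 1 library left out; the estimates without control replicate 2 (blue triangles) lie below 0 for 6 of the 8 genes.

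The 8 genes differed between the mice within each genotype. In all 8, both libraries numbered 1 lay above both libraries numbered 2, a pattern of 14.2% of all genes tested. In 6 of the 8 the libraries had the same order, cKO replicate 1, control replicate 1, cKO replicate 2 and control replicate 2 from high to low, as did 6.18% of all genes. The exceptions were Hdc, highest in control replicate 1, and Cyp11a1. The numbers only name the mice, and nothing in the labels says that mice of one number shared a litter, a day or a batch. The within-group residual SD on the log2 scale had a median of 0.84 over the 8 genes, against 0.29 over all genes tested and 0.22 over the 11656 with a mean of at least 100.

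Between the cKO mice the level in replicate 1 over that in replicate 2 ran from 1.06-fold for Hdc to 2.57-fold for Fcer1a. Between the control mice it ran from 1.33-fold for Cyp11a1 to 3.74-fold for Fcer1a. The proteases differed by 2.02-fold (exact 95% counting interval 1.96 to 2.08) for Prss34 and 2.04-fold (1.95 to 2.14) for Mcpt8 between the cKO mice. Between the control mice the same genes differed by 3.22-fold (3.12 to 3.32) and 2.19-fold. The ratio of Prss34 to Mcpt8 was therefore alike in 3 libraries, at 2.57 and 2.60 in cKO libraries and 2.50 in control replicate 1, and lower in control replicate 2, at 1.70. Cd200r3 differed by 2.48-fold (2.11 to 2.93) between the cKO mice and 3.40-fold (2.86 to 4.08) between the control mice. Ms4a2 differed less, by 1.76-fold (1.63 to 1.89) between the cKO mice and 1.94-fold between the control mice. Hdc and Cyp11a1 stood out in opposite genotypes, Hdc with little difference between the cKO mice and 2.51-fold (2.37 to 2.64) between the control mice, Cyp11a1 with 1.99-fold (1.71 to 2.34) between the cKO mice and 1.33-fold (1.16 to 1.54) between the control mice. All 16 of these ratios had an exact 95% counting interval above 1, the nearest being Hdc in cKO libraries (1.06, 1.002 to 1.12). The reads behind them ran from 170 for Cd200r3 in control replicate 2 to 15876 for Prss34 in control replicate 1, a counting SD of 7.67% at most. These intervals hold counting error alone and not the variation between mice. The span from the highest to the lowest of the 4 libraries was 2.65-fold to 5.25-fold in the 5 genes with AGATAA in the promoter window and 1.99-fold to 2.51-fold in the 3 without, a split noticed after the values were seen and not tested. At the same number, the cKO library was 0.827 to 1.42 times the control library for replicate 1 and 0.949 to 2.04 times for replicate 2.

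**Figure D4:**
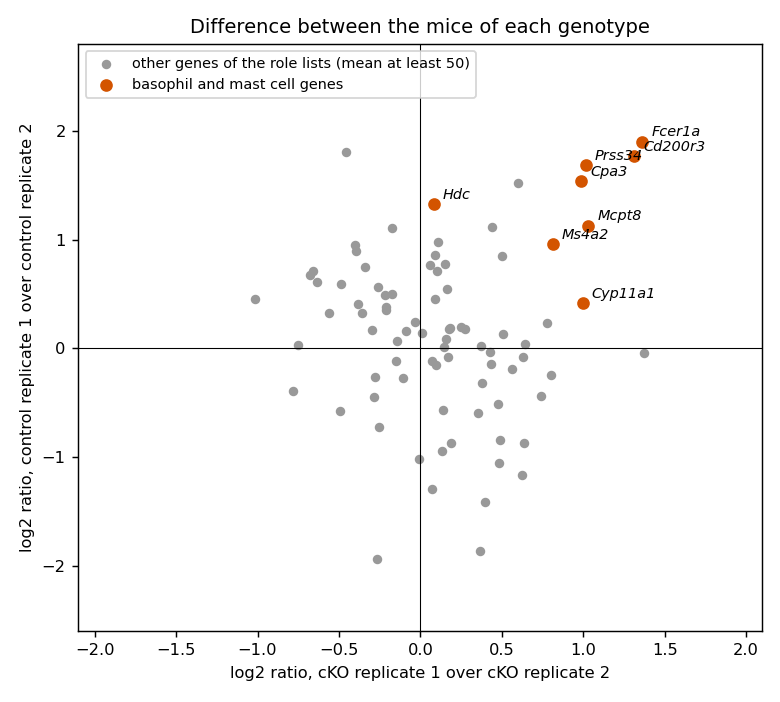
Each point is 1 gene: the x axis is the log2 ratio of cKO replicate 1 over cKO replicate 2, the y axis that of control replicate 1 over control replicate 2. The 8 basophil and mast cell genes (orange) are all positive on both axes; the other genes of the pathway lists with a mean of at least 50 (grey) lie on both sides of 0.

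Other genes of the same cells and pathways were counted from lists chosen by function. Of 80 such genes tested, 0 passed, 40 had a log2 fold change above 0 and 40 below, and the median was -0.01; 9 had an unadjusted p under 0.05, against 1013 of 16598 over the table. In all, 12 of the 80 (15%) had both libraries numbered 1 above both numbered 2, close to the 14.2% of all genes. Of these, 6 had the same full order as the proteases, namely Syk, Inpp5d, Alox5, Stat5b, Csf2rb2 and Il4ra. Alox5, the lipoxygenase that starts leukotriene synthesis, had 985 and 649 normalized counts in cKO libraries, against 833 and 290 in control libraries. Csf2rb2, the mouse beta chain of the interleukin-3 receptor, had 2232 and 1580 in cKO libraries, against 1797 and 995 in control libraries. Alox5 and Csf2rb2 had log2 fold changes of 0.70 (SE 0.48) and 0.49 (SE 0.32). Other genes of that receptor had a log2 fold change below 0. Il3ra, its alpha chain, had 1528 and 2147 in cKO libraries, against 2302 and 3434 in control libraries. Its log2 fold change was -0.63 (SE 0.27), and it was higher in replicate 2 of each genotype. Csf2rb, which is among the 12, had 6164 and 5781 in cKO libraries, against 8963 and 4938 in control libraries. The log2 fold change of Csf2rb was -0.16 (SE 0.28), within its error. None of these genes passed.

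Of the 14 other receptor-signalling genes 0 passed (8 above 0, 6 below, median log2 fold change 0.07). The most abundant were Vav1, a guanine nucleotide exchange factor (-0.16, SE 0.18), the kinase Syk (0.12, SE 0.19), the lipid phosphatase Inpp5d (0.04, SE 0.20) and the phospholipase Plcg2 (0.14, SE 0.31). Each of these genes is also expressed in other blood cells. None of 10 genes of mediator synthesis and granule storage passed (median -0.02). Srgn, the granule proteoglycan serglycin, had 21504 ± 4158 normalized counts in cKO libraries and 21188 ± 8981 in control libraries (SD, n = 2 mice each). Slc18a2, the vesicular transporter that loads histamine, had 2021.7 ± 69.5 in cKO libraries and 2009 ± 1194 in control libraries, and its highest library was control replicate 2, where Hdc was lowest. Alox5ap was at -0.39 (SE 0.25) in log2 fold change. Ndst2, which modifies heparin, was at -0.11 (SE 0.19).

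Of 11 other proteases listed, Gzmb and Ctsg had a row in the table used here, and neither passed. Ctsg, cathepsin G, which neutrophil precursors also make, had 29045 and 39824 normalized counts in cKO libraries and 46162 and 13211 in control libraries, an order unlike that of Prss34, and Gzmb had a log2 fold change of -0.04 (SE 0.42). As a check of the label against mature mast cells, 9 markers of those cells were looked up. The tryptase and chymase genes Tpsab1, Tpsb2, Cma1, Mcpt4, Mcpt1 and Mcpt2 and the receptor genes Mrgprb1 and Mrgprb2 matched no row, and the remaining gene, Gnmt, had 14.0 and 23.0 normalized counts in cKO libraries and 33.2 and 7.98 in control libraries. The table holds genes with at least 41 reads over the 4 libraries, so these 8 have no value here. The basophil proteases Mcpt8 and Prss34 were therefore measured at high levels where mature mast cell proteases had no value, and the level of each cell type cannot be read from the shared genes.

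None of 15 transcription factors passed (median log2 fold change -0.04). The most abundant were Irf8 (0.13, SE 0.23), Spi1 (-0.14, SE 0.32), Stat5b (0.09, SE 0.19) and Cebpa (0.13, SE 0.34). Gata2, the factor that both lineages need and that stem and erythroid progenitors also express, had 5022 and 4408 normalized counts in cKO libraries and 4150 and 7605 in control libraries. Gata2 was thus highest in control replicate 2, where 7 of the 8 genes were lowest. Mitf, the mast cell factor, had 424 and 407 in cKO libraries and 389 and 228 in control libraries. None of 19 receptor and adhesion genes passed (median 0.24). Of the most abundant, Ccr2 had a log2 fold change of -0.55 (SE 0.23), Itga4 0.40 (SE 0.24), Kit, the stem cell factor receptor, 0.24 (SE 0.19) and Itgb7 -0.05 (SE 0.21).

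None of 9 cytokine and chemokine genes passed (median log2 fold change -0.17), with Ccl9 at -0.35 (SE 0.30), Ccl6 at -0.17 (SE 0.34), Csf1 at 0.22 (SE 0.30) and Hgf at 0.87 (SE 0.40). Il4, a cytokine of activated basophils and T cells, had 65.4 and 49.4 normalized counts in cKO libraries and 36.9 and 6.38 in control libraries. These levels rested on few reads, 56 and 43 in cKO libraries and 40 and 8 in control libraries. The log2 fold change of Il4 was 1.79 (SE 0.88). Of the 5 CD200 receptor genes and adaptors outside the 8, Cd200r1 had 0.60 (SE 0.27), Cd200r4 0.57 (SE 0.53), Tyrobp, the adaptor of activating receptors, -0.13 (SE 0.27) and Hcst -0.34 (SE 0.33), and none passed. Of the 6 other steroid-synthesis genes tested, none passed (median -0.16). Fdxr and Fdx1, which pass electrons to CYP11A1, had -0.17 (SE 0.28) and -0.36 (SE 0.28), Tspo had -0.15 (SE 0.22) and Stard3 -0.02 (SE 0.20).

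Markers of other cells moved between libraries in other ways. The summed level of the 10 eosinophil markers was 14088 and 26326 normalized counts in cKO libraries and 22766 and 4194 in control libraries. It shared its lowest library with 7 of the 8 genes and had its highest in cKO replicate 2, where the sum of the 8 genes was the lower of the cKO values. Of the 10 eosinophil markers, 9 were lowest in control replicate 2. All 10 had a log2 fold change above 0 (median 1.54), as all 8 basophil and mast cell genes had, though 0 passed. The 12 neutrophil markers summed to 373590 and 469220 in cKO libraries and 596350 and 187440 in control libraries, a sum in which Mpo was the largest part in each library. By gene, 6 of the 12 were lowest in control replicate 2 (Mpo, Elane and Ctsg among them) and the others, such as S100a8 and S100a9, in cKO replicate 1, where 7 of the 8 basophil and mast cell genes were highest. Of the 12 neutrophil markers 9 had a log2 fold change below 0 (median -0.48) and 0 passed. The 12 erythroid markers summed to 66271 and 40544 in cKO libraries and 46149 and 142170 in control libraries. The 8 megakaryocyte markers measured summed to 7896 and 7750 in cKO libraries and 6007 and 12621 in control libraries. Both sums were highest in control replicate 2, where 7 of the 8 basophil and mast cell genes were lowest. Between the cKO mice both sums were higher in replicate 1, as were the 8 genes. Of the erythroid markers 11 had a log2 fold change below 0 (median -0.87) and 0 passed. Of the megakaryocyte markers 6 were below 0 (median -0.14) and 0 passed. The 13 markers of T, NK and innate lymphoid cells summed to 13927 and 12586 in cKO libraries and 10528 and 7740 in control libraries. Nkg7, with 4975 and 6616 in cKO libraries and 8474 and 4671 in control libraries, made up a large part of that sum and was the 1 marker of this list below 0. The other 12 were above 0, the median log2 fold change of the list was 1.63, and in 11 of the 13 both cKO libraries lay above both control libraries, where 19.2% of all genes did, though 0 of the 13 passed. The 8 B cell markers summed to 2053 and 1430 in cKO libraries and 1283 and 1119 in control libraries, and the 8 dendritic markers to 39412 and 35289 in cKO libraries and 34821 and 30396 in control libraries. The 10 stem cell markers summed to 37793 and 36401 in cKO libraries and 30687 and 33750 in control libraries. Ctsg (neutrophil), Il7r (lymphoid), Irf8 (dendritic) and Kit and Gata2 (stem cell) are in these lists as well as in the pathway lists. Every marker with a row in these lists had reads in at least 1 library. The 13 immediate early genes, which can respond to cell handling, summed to 6193 and 8119 in cKO libraries and 15933 and 21085 in control libraries. All 13 had a log2 fold change below 0 (median -1.70), though 0 passed. In 12 of the 13 both cKO libraries lay below both control libraries, where 19.5% of all genes did. Their sum was lowest in cKO replicate 1, where 7 of the 8 basophil and mast cell genes were highest. The part of these cell types, of RNA quality and of handling in the levels of the 8 genes was not tested.

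Outside the lists, the genes whose library profile lay nearest to that of the 8 were sought among 11489 genes with a mean of at least 50, by Euclidean distance between log2 values centred on each gene's mean over the 4 libraries. They were Snx29 (distance 0.16), Sytl3 (0.17), Dab2 (0.18), Map3k15 (0.20) and Shisa2 (0.20). The 8 genes themselves lay at 0.09 for Cpa3 to 0.74 for Cyp11a1 from their median profile, and 305 of the genes searched lay within that largest distance. Snx29, a sorting nexin, had 549 and 265 normalized counts in cKO libraries and 416 and 173 in control libraries. None of the 5 passed, and their levels ran from 33.5 for Shisa2 in control replicate 2 to 549 for Snx29 in cKO replicate 1.

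**Figure D5:**
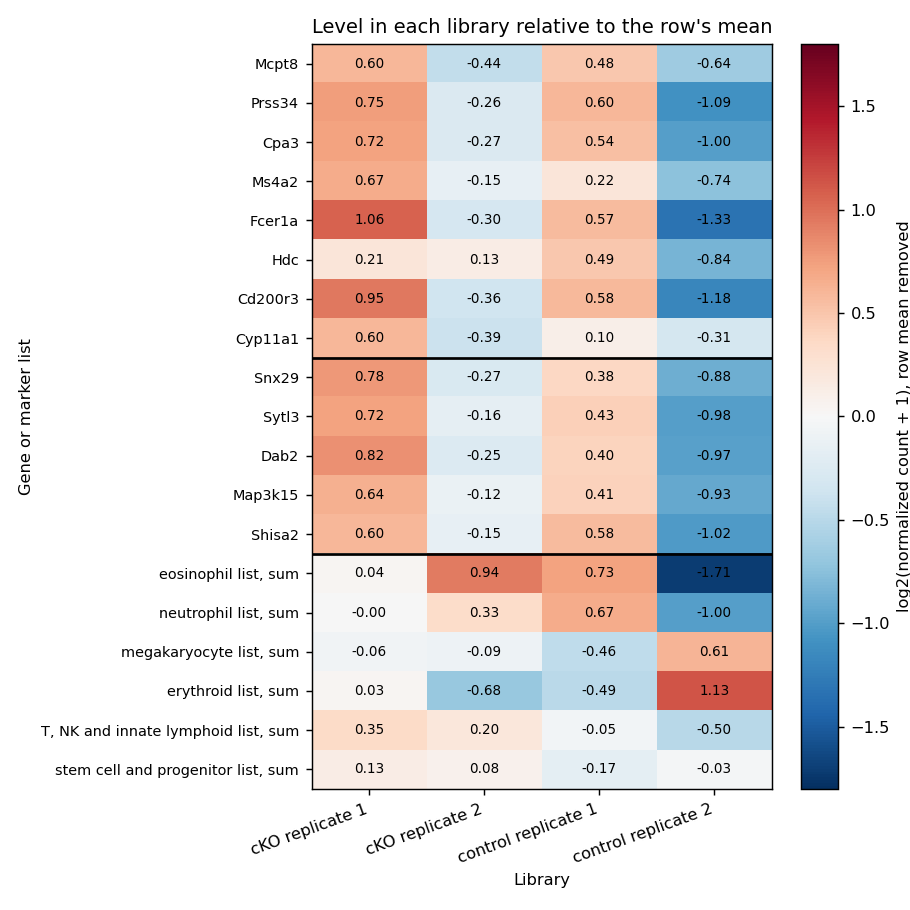
log2(normalized count + 1) in each library with the row's mean over the 4 libraries removed, for the 8 genes (top), the 5 genes of nearest profile (middle) and the summed level of 6 marker lists (bottom); red is above and blue below the row's mean. Prss34, for example, is at 0.75 and -0.26 in cKO and at 0.60 and -1.09 in control libraries, while the eosinophil list is highest in cKO replicate 2 (0.94).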

How the data were processed

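RNA-seq of Lin– bone marrow from 4 mice was analysed as deposited. The authors deposited a signal per gene and library that, from its values, is a read count over a library size factor. The submitters' processing notes list, without roles, featureCounts, DESeq2, SAMtools, STAR 2.7.9a and Trim Galore 0.6.7, and the mouse build mm39. Annotation, strand and counting settings are not given. Columns named WT were taken as the samples labelled control. All values were whole multiples of 1 read (100% within 0.1 read), so reads were recovered by division.

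Groups were compared on log2(normalized count + 1) with limma 3.58.1 in R 4.3.3, across all 16598 genes with a mean of at least 10, by empirical Bayes with a trend, two-sided, Benjamini-Hochberg adjusted, threshold 0.05. Alternatives were other pseudocounts, filters and scalings, no trend, a replicate block, leaving out each library in turn, and count tests of recovered reads with edgeR 4.0.16 and DESeq2 1.42.0. The steps were tested on simulated data. The members and lists were chosen with earlier results of these data known. Per pathway list, the up to 4 genes of highest mean outside the 8 were named, plus any that passed. For the lists of other cells and of RNA quality, summed levels were given and some genes named. Outside the lists, the 5 genes of nearest profile were named. Fcer1g, Gata2, Mitf, Il4, Il4ra, Alox5, Csf2rb2, Il3ra, Csf2rb, S100a8 and S100a9 were named after their values were seen. P-values and intervals rest on the spread between 2 mice a group, with each gene's variance drawn toward that of other genes. The fit had 2 residual and 5.48 prior degrees of freedom. The 8 genes varied more than most, so their SE (median 0.47, residual SD 0.84) are smaller than their own spread alone would give. Promoters and lengths came from RefSeq and GENCODE M21 by symbol.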

Additional observations from a re-analysis of the deposited data

How the results depend on the processing

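Under 11 alternatives that kept all 4 libraries, each of the 88 log2 fold changes of the 8 genes kept its direction. The lowest adjusted p was 0.72 (limma with Benjamini-Hochberg, library totals) and 0 of the 8 was called. The filters, no trend and the replicate block cannot move a fold change in this design. Direction could thus turn only with the pseudocounts, scalings and count tests. Scaling to library totals moved the median log2 fold change of all genes by 0.11, and that of the 8 to 0.58. The count of called genes over the table was 12, and 107 with DESeq2; the other alternatives with all libraries gave 8 to 12. With each library left out it ran from 10 to 393 (393 when control replicate 1 was left out, 26 for cKO replicate 1), the number of the 8 called from 0 to 1, and their median log2 fold change from -0.30 to 1.12. In 11 of 32 such fits a member turned direction. These were the ranges: Mcpt8 -0.41 to 0.72, Prss34 -0.36 to 1.33, Cpa3 -0.32 to 1.22, Ms4a2 0.04 to 0.9986 (no turn), Fcer1a -0.19 to 1.71, Hdc -0.31 to 1.01, Cd200r3 -0.29 to 1.47 and Cyp11a1 -0.28 to 0.71. The cause was not tested; in these fits the genotype left with 1 library is assumed to vary like the other. With the replicate block 8 genes were called over the table and 0 of the 8 members, with 2 at an unadjusted p under 0.05. Same-numbered libraries did not deviate together over all genes (correlation of deviations -0.07). That correlation cannot decide whether mice of the same number shared a litter, a day or a batch, since these could act on some genes only. The smallest count of a member was 170 reads, with a counting SD of 7.67%.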
